A study of Mus musculus with 36 samples.

Results

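The 10 genes described here code for serine proteases that act on or just outside epithelial cells and for the inhibitors that hold them in check. The proteases are Prss22, Prss8, Tmprss2, St14, Plau and Plat, and the inhibitors are Wfdc2, Slpi, Spint1 and Spint2. They were listed by symbol and matched to their Ensembl identifiers, and all 10 were found among the 52636 genes of the deposited count files. Prss22 and Wfdc2 were chosen by their lower level with anti-Ptk7 in these same libraries, so their values under SCM, Wnt5a and the antibody are given as a description without a test. The other 8 were listed for their function.

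RNA was sequenced from intestinal organoids of C57BL/6 mice, cultures in which jejunal crypts grow in a gel into closed epithelial bodies with a lumen. Crypts came from 6 mice, whose age is not given for these cultures in the sources used here. Complete media (IntestiCult), QCM, SCM and Wnt5a were each given with IgG, and SCM and Wnt5a were given with anti-Ptk7 as well, for 2 days. These 6 conditions had 6 libraries each, 36 in all. QCM and SCM are IntestiCult mixed with concentrated medium from mouse embryonic fibroblasts made quiescent by low serum or senescent by irradiation or doxorubicin, and which of the latter was used for these libraries is not given in the sources used here. Wnt5a was added to complete media. Anti-Ptk7 is an antibody against the N-terminal domain of the receptor Ptk7, IgG is its control, and no library of complete media or QCM with anti-Ptk7 was analysed here, so the antibody was measured only together with SCM or Wnt5a.

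Total counts per library ran from 9581589 to 21029769 with a median of 13490071, and 15497 genes passed the filter on low counts and were tested. Levels are given as CPM, counts scaled by TMM to a common library size, and differences as log2 fold changes with their standard error (SE) from edgeR's quasi-likelihood test. A gene was called where its fold change was over 1.5 and its p, adjusted by Benjamini-Hochberg over all genes tested, was under 0.05. All 9 epithelial markers were detected in every library. Of 8 fibroblast markers, Col3a1, Dcn and Thy1 were at 0 in all 36 libraries. Vim had a mean of 3.84 CPM and was at 0 in 1 library. Lum, Col1a1, Col1a2 and Pdgfra had counts in some libraries, at means of at most 0.135 CPM. In such bulk libraries a smaller number of cells of a type and less RNA per cell cannot be told apart.

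Serine proteases cut proteins with a catalytic serine, and most are made as inactive precursors that another protease has to cut. On epithelial cells they form a cascade at the membrane: matriptase (St14) and prostasin (Prss8) activate each other and act on junction proteins, on sodium channels and on the protease-activated receptors, and the Kunitz-type inhibitors Spint1 and Spint2 sit in the same membrane and block them. Plat and Plau, the tissue-type and urokinase-type plasminogen activators, are secreted and turn plasminogen into plasmin, which degrades fibrin and matrix. In the gut this system guards the barrier, and loss of Spint2 in people causes a congenital diarrhoea.

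RefSeq promoter entries (GRCm38.p6) were found for 5 of the 10 genes, Tmprss2, Wfdc2, Slpi, Spint1 and Spint2. The 250 bases before the RefSeq start of transcription are shown for Wfdc2, the gene of this group with an entry whose level differed most between conditions, and for Tmprss2, which differed little, because the YAP partner TEAD was part of the question the study asked of these cultures. The RefSeq start of Wfdc2 lies downstream of the first GENCODE start, so its window falls inside the gene span given later from GENCODE. The capitals mark the TEAD core GGAATG, searched on both strands.
Wfdc2, chr2:164562465-164562714, plus strand: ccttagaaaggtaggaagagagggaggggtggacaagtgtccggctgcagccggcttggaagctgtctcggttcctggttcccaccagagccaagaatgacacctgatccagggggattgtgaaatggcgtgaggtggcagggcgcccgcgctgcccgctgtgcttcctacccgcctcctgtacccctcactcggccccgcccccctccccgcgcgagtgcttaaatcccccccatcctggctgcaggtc
Tmprss2, chr16:97611196-97611445, minus strand: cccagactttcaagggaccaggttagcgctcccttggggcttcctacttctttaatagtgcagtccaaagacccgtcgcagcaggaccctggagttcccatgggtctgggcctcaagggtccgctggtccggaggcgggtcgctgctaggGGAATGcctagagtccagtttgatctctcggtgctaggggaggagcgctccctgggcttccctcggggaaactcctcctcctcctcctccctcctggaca
Tmprss2 held the core once, starting 100 bases before the start of transcription, and Wfdc2, Slpi, Spint1 and Spint2 did not hold it in this window. Of 32851 RefSeq promoter windows of the same length, 12.6% held it. The AP-1 letters TGANTCA, held by 6.75% of the windows, were in none of the 5. These matches describe the letters alone.

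The detected genes were 8, by the limit of a mean of 0.5 CPM over all libraries. The lowest of them was Prss22 at a mean of 3.63 CPM, well above the limit, and below the limit lay Plau at 0.253 CPM and Slpi at 0.0187 CPM. Plau, the urokinase gene, had no more than 17 counts in any library. Slpi, a secreted inhibitor of neutrophil elastase, had 7 counts in Wnt5a + IgG replicate 1 and 0 in the other 35 libraries. Both are therefore reported as not detected at this depth, and Slpi also failed the filter, which left 9 genes tested.

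Divided by the length of the merged exons, Spint2 was the most abundant of the 8 with a mean of 289 CPM per kb. Spint1 followed with 150 CPM per kb, and St14, Tmprss2 and Prss8 lay close together at 56.8, 55.0 and 53.4 CPM per kb. Wfdc2 at 12.6, Plat at 3.29 and Prss22 at 2.74 CPM per kb were far below them. The membrane-bound genes were thus the abundant ones, and the 3 genes for secreted proteins the scarce ones. Divided by the coding length alone, the order of Spint1, Tmprss2, St14 and Prss8 was 273, 259, 166 and 97.3 CPM per kb, so that the near tie of St14, Tmprss2 and Prss8 depends on the length used.

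**Figure D1:**
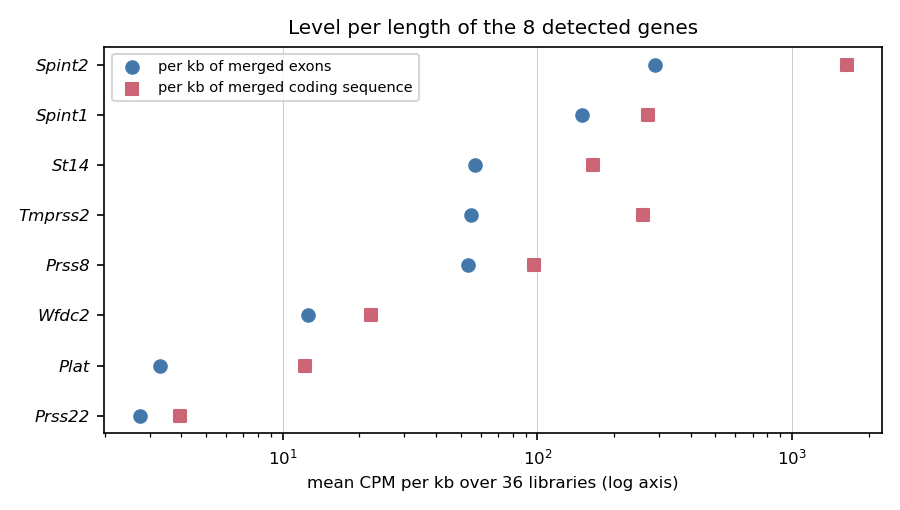
Mean level over 36 libraries of the 8 detected genes, in CPM per kb on a log axis. Circles divide by the merged exon length and squares by the merged coding length. Spint2 is the highest and Prss22 the lowest by either length.

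Conditions accounted for 69.2% of the variance of log2 CPM over the 36 libraries in Plat, against a median of 29.3% over all tested genes. In Wfdc2 and Prss22 the share was 69.5% and 68.5%, but these genes were chosen by a difference between conditions in the same libraries, which makes a high share a property of the choice. In Spint2, Prss8, Tmprss2 and Spint1 the share was 58.3%, 52.8%, 52.6% and 40.5%. The SD of their log2 CPM was between 0.119 and 0.324 over the 36 libraries and between 0.083 and 0.241 within a condition. These are shares of a small spread. St14 had the smallest share of the 8, 15.5%.

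Plat, the tissue-type plasminogen activator on chromosome 8 (22757727 to 22782844 of GRCm38, plus strand), fell with anti-Ptk7 in both media. In SCM + IgG its level had a lowest, median and highest value of 15.7, 31.2 and 42.0 CPM, and in SCM + anti-Ptk7 of 3.73, 8.45 and 13.4 CPM. Every library with the antibody lay below every library without it. The log2 fold change was -1.91 with an SE of 0.279, a level of 0.27 times that with IgG (adjusted p = 0.00013, edgeR). In Wnt5a + IgG the values were 23.2, 26.8 and 41.7 CPM and in Wnt5a + anti-Ptk7 6.84, 11.3 and 23.9 CPM. Here the ranges met, because Wnt5a + anti-Ptk7 replicate 1, with 23.9 CPM, lay just above the lowest library with IgG. The log2 fold change was -1.18 with an SE of 0.272 (adjusted p = 0.0131, edgeR). Plat was the single gene called of the 7 tested in each medium, where 1.23% of all genes were called in SCM and 0.884% in Wnt5a.

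With IgG, Plat was not called in SCM or in Wnt5a against complete media, although its mean was higher in both. Complete media + IgG gave a lowest, median and highest value of 12.9, 24.9 and 31.5 CPM and QCM + IgG 15.1, 18.7 and 26.7 CPM, and both ranges overlapped those of SCM + IgG and Wnt5a + IgG. The log2 fold change against complete media was 0.45 with an SE of 0.266 in SCM (adjusted p = 0.316, edgeR) and 0.31 with an SE of 0.266 in Wnt5a (adjusted p = 0.451, edgeR), and SCM against QCM gave 0.67 with an SE of 0.267 (adjusted p = 0.18, edgeR). The last was called when the replicate number was added to the model. With anti-Ptk7 the level was therefore set directly against complete media, a comparison that was added after the data were seen. Plat was lower than in complete media in SCM + anti-Ptk7, by a log2 fold change of -1.47 with an SE of 0.278 (adjusted p = 0.00038, edgeR), and in Wnt5a + anti-Ptk7, by -0.87 with an SE of 0.272 (adjusted p = 0.0137, edgeR). It was the gene called of the 7 in each, against 5.86% and 14.5% of all genes. The antibody was not measured in complete media, so a share of this difference that belongs to the antibody alone cannot be told apart from one that needs SCM or Wnt5a.

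The difference between the antibody's effects in Wnt5a and in SCM was 0.74 on the log2 scale for Plat, with an SE of 0.384 (adjusted p = 0.999, unadjusted p = 0.0633, edgeR). None of the 7 genes was called in this comparison, and 0 had an unadjusted p under 0.05. Over all genes the share called was 0%, with 602 at an unadjusted p under 0.05, and DESeq2 and voom with limma also called none.

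Cell type markers were measured in the same libraries. The summed level of 8 fibroblast markers, most of it Vim, with Col3a1, Dcn and Thy1 at 0, had a median of 4.87 CPM in SCM + IgG (0.0996 to 7.20) and of 2.23 CPM in SCM + anti-Ptk7 (0.716 to 4.28). With Wnt5a the medians were 5.77 CPM (3.66 to 7.39) and 4.19 CPM (3.56 to 5.21). These ranges overlapped, and Vim, the 1 marker of the 8 that could be tested, was not called in either medium. Endothelial markers, which would mark the cell type that is the classical source of Plat, summed to at most 1.18 CPM in any library and Kdr was at 0 in all. With the antibody, 1.23% of all genes were called in SCM and 0.884% in Wnt5a. Of 4 enteroendocrine markers 1 was called in each medium, with a median log2 fold change of -0.18 in SCM and 0.00 in Wnt5a. Of 5 enterocyte markers 1 was called in each, with medians of -0.03 and -0.15. The hormone gene Gip was lower with the antibody in SCM by a log2 fold change of -1.06 (adjusted p = 0.00368, edgeR) and in Wnt5a by -0.83 (adjusted p = 0.0201, edgeR), and the enterocyte phosphatase gene Alpi by -0.59 (adjusted p = 0.0403, edgeR) and -0.72 (adjusted p = 0.0104, edgeR). The summed enterocyte markers had medians of 1802 and 2061 CPM in the SCM pair and 1517 and 1427 CPM in the Wnt5a pair. Of 4 Paneth markers 1 was called, Lyz1 in Wnt5a, at -0.63 (adjusted p = 0.00374, edgeR). Their part in the result on Plat was not tested.

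**Figure D2:**
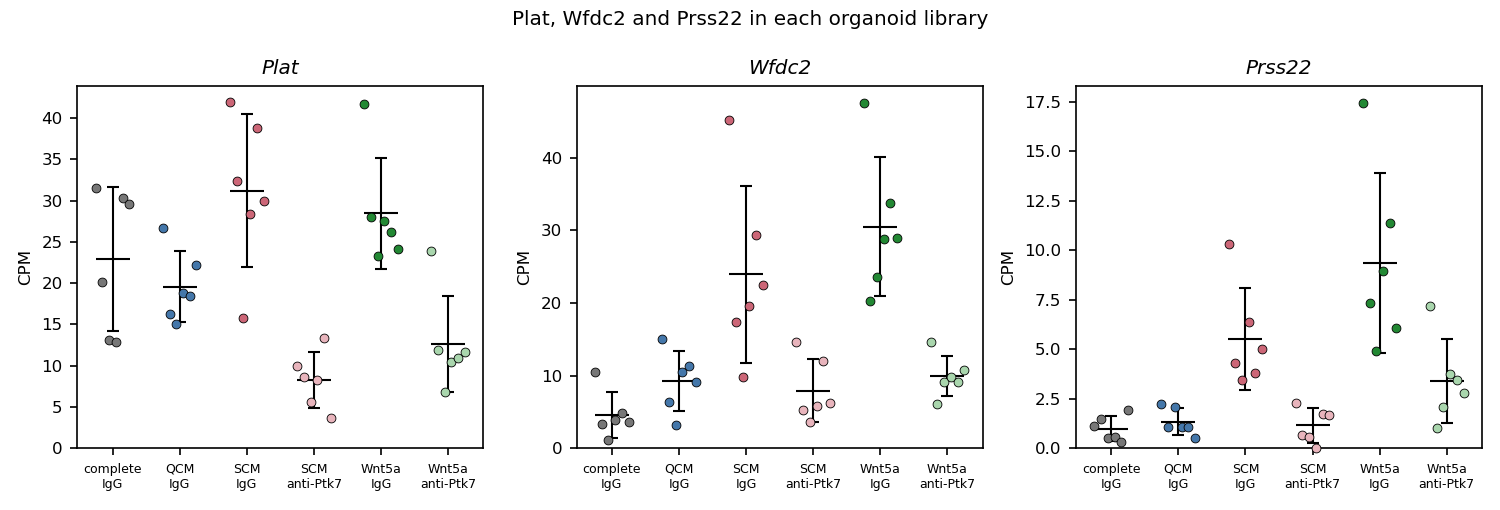
CPM of Plat, Wfdc2 and Prss22 in each of the 36 libraries by condition. Points are libraries, from left to right in order of replicate number, the horizontal line is the mean and the bars the SD over 6 libraries. All 3 genes are lower on average with anti-Ptk7 than with IgG in both media. The mean of Plat is 22.9 CPM in complete media, 31.2 CPM in SCM + IgG and 28.4 CPM in Wnt5a + IgG, differences that did not pass the test.

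Wfdc2 codes for a small secreted protein with whey acidic protein domains, a fold shared with Slpi, and lies on chromosome 2 (164562413 to 164568510, plus strand). Its lowest, median and highest values were 1.08, 3.82 and 10.5 CPM in complete media + IgG, 9.79, 21.03 and 45.2 CPM in SCM + IgG, and 20.3, 28.96 and 47.6 CPM in Wnt5a + IgG. The Wnt5a libraries were all above the complete media libraries, and the SCM libraries overlapped them through a single pair of libraries. Against complete media the log2 fold change was 2.40 with an SE of 0.392 in SCM and 2.75 with an SE of 0.395 in Wnt5a. With anti-Ptk7 the values were 3.63, 6.04 and 14.7 CPM in SCM and 6.16, 9.49 and 14.6 CPM in Wnt5a. The differences that chose this gene were -1.59 with an SE of 0.374 and -1.62 with an SE of 0.370 on the log2 scale, which is 0.33 times the IgG level in both media.

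Prss22, a secreted tryptase-like protease best known from airway epithelium, lies on chromosome 17 (23993534 to 23998100, minus strand) and was the scarcest of the detected genes. It had a lowest, median and highest value of 0.311, 0.866 and 1.92 CPM in complete media + IgG, which is 4 to 26 counts, of 3.44, 4.65 and 10.3 CPM in SCM + IgG and of 4.93, 8.15 and 17.4 CPM in Wnt5a + IgG. Every library of SCM + IgG and Wnt5a + IgG lay above every library of complete media and QCM. Against complete media the log2 fold change was 2.48 with an SE of 0.514 in SCM and 3.23 with an SE of 0.519 in Wnt5a. In SCM + anti-Ptk7 the values were 0, 1.17 and 2.29 CPM, which overlapped those of complete media, with a log2 difference from SCM + IgG of -2.27 and an SE of 0.503. In Wnt5a + anti-Ptk7 they were 1.01, 3.13 and 7.21 CPM, with a difference of -1.46 and an SE of 0.466. Against complete media, the log2 fold change left with the antibody was 0.21 with an SE of 0.541 in SCM and 1.76 with an SE of 0.515 in Wnt5a, and for Wfdc2 it was 0.81 with an SE of 0.390 and 1.13 with an SE of 0.389. None of these contrasts was tested for Prss22 or Wfdc2, since they share libraries with the contrasts by which both were picked.

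QCM against complete media shares no library with those contrasts, and here all 9 genes were tested. Wfdc2 had a lowest, median and highest value of 3.26, 9.84 and 15.03 CPM in QCM + IgG, a log2 fold change of 1.03 with an SE of 0.388 that missed the threshold (adjusted p = 0.24, edgeR). Prss22 had values of 0.510, 1.08 and 2.23 CPM and a log2 fold change of 0.43 with an SE of 0.532 (adjusted p = 0.811, edgeR). By edgeR 0 of the 9 genes were called in this comparison, and DESeq2 and voom with limma called 0 as well, against 0.374% of all genes by edgeR. Wfdc2 was called when the replicate number was added to the model or the libraries numbered 1 were left out, as given below. At an unadjusted p under 0.05 there were 3 of the 9, against 1858 of the 15497 genes tested. SCM set against QCM gave a log2 difference of 1.37 with an SE of 0.369 for Wfdc2 and of 2.05 with an SE of 0.493 for Prss22. Of the 7 genes tested between SCM and QCM, edgeR, DESeq2 and voom with limma called 0, against 0.903% of all genes by edgeR. Plat was called there with the replicate number in the model. At an unadjusted p under 0.05 there were 2 of the 7, against 2633 of 15497.

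**Figure D3:**
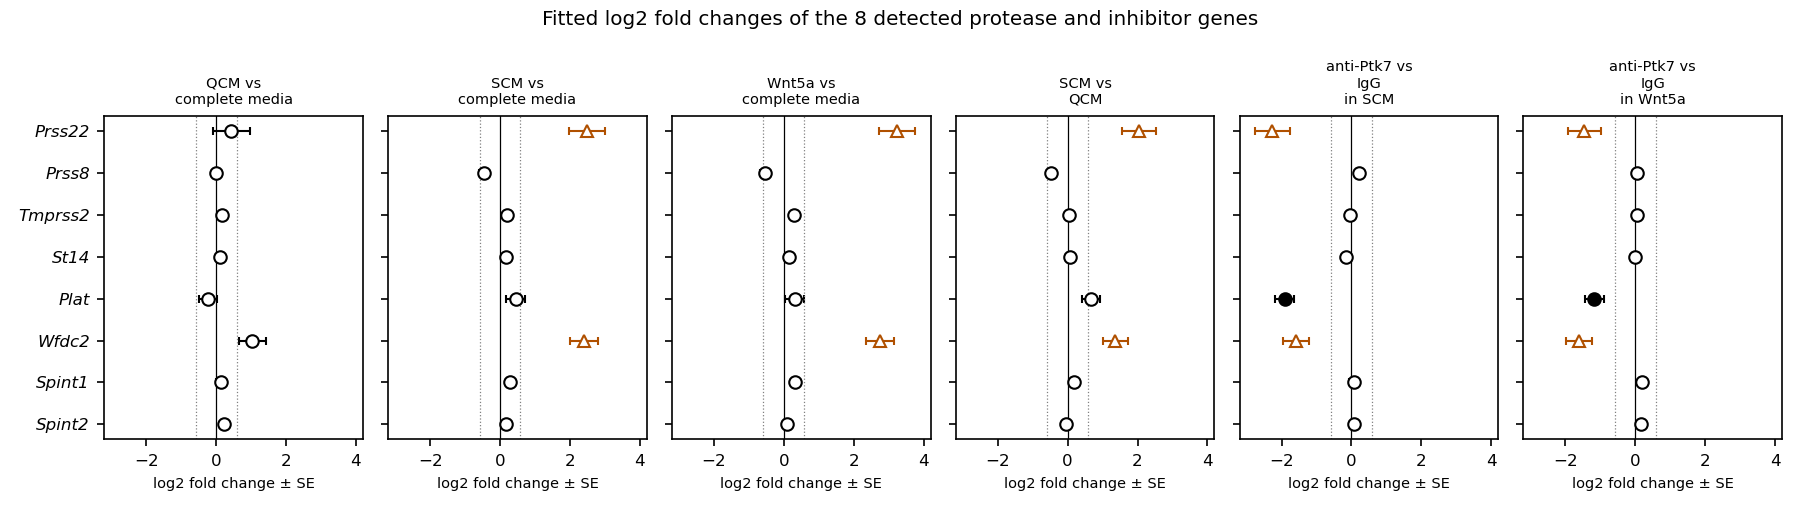
Log2 fold changes with their SE of the 8 detected genes in 6 comparisons. Filled circles were called, open circles were tested and not called, and triangles mark Prss22 and Wfdc2 where they were not tested. Dotted lines mark a fold change of 1.5. Plat with anti-Ptk7 is the filled point in both media, and Prss8, Tmprss2, St14, Spint1 and Spint2 stay between the dotted lines.

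The 7 genes tested in the remaining comparisons with complete media were Prss8, Tmprss2, St14, Plau, Plat, Spint1 and Spint2. By the call used here, 0 of them passed in SCM against complete media, where 6.08% of all genes did, and 0 in Wnt5a against complete media, where 10.2% did. At an unadjusted p under 0.05 there were 4 and 3, against 3825 and 5133 of the 15497 genes tested, and DESeq2 and voom with limma called 0 in each. Without the fold change cutoff, by the adjusted p alone, 2 of 7 passed in SCM and 2 of 7 in Wnt5a, against 11.9% and 21.8% of all genes, and 1 of 9 in QCM, against 0.658%. The genes that passed so were Prss8, Tmprss2 and Spint2.

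Cell type markers also differed against complete media. Of all genes, 0.374% were called in QCM, 6.08% in SCM and 10.2% in Wnt5a. Of 5 enterocyte markers, 3 were called higher in QCM, 4 in SCM and 3 in Wnt5a, with median log2 fold changes of 0.74, 1.09 and 0.62. Their summed level had a lowest, median and highest value of 909, 1155 and 1562 CPM in complete media + IgG, 1399, 1519 and 1834 CPM in QCM + IgG, 1599, 1802 and 2195 CPM in SCM + IgG and 1005, 1517 and 1787 CPM in Wnt5a + IgG. Of 9 epithelial markers 3 were called higher in SCM, Krt8, Krt18 and Krt20, and 4 in Wnt5a, these and Cdh1. Of 3 tuft markers 0 were called in SCM and 2 in Wnt5a, Dclk1 and Trpm5, both higher. The median log2 fold change of the tuft markers was 0.05 in SCM and 1.32 in Wnt5a. Of 4 Paneth markers 1 was called in each, Mmp7, which was higher, while the median log2 fold change of the 4 was 0.19 in SCM and -0.23 in Wnt5a. Of 4 stem cell markers 1 was called in each, Smoc2, which was lower, while the median was -0.05 in SCM and 0.05 in Wnt5a. Against complete media, 5.86% of all genes were called in SCM + anti-Ptk7 and 14.5% in Wnt5a + anti-Ptk7. Of 9 epithelial markers 3 and 5 were called higher there, and of 5 enterocyte markers 3 and 2. Of 4 stem cell markers Ascl2 was higher and Smoc2 lower in both, and Lgr5 lower in SCM + anti-Ptk7. In Wnt5a + anti-Ptk7 2 of 3 tuft markers were higher, and 2 of 6 goblet and 2 of 4 Paneth markers lower. In SCM + anti-Ptk7 Mmp7 was higher and Gip lower. The part of these cell types in the differences of Prss8, Tmprss2, Plat, Spint1, Spint2, Wfdc2 and Prss22 against complete media was not tested.

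Prss8, the gene of prostasin, a protease tethered to the membrane by a lipid anchor, was lower in SCM and in Wnt5a than in complete media. It had a lowest, median and highest value of 102, 121 and 130 CPM in complete media + IgG, 58.7, 90.9 and 105 CPM in SCM + IgG and 56.1, 88.8 and 94.3 CPM in Wnt5a + IgG. Every Wnt5a library was below every complete media library. Its log2 fold change against complete media was -0.46 in SCM with an SE of 0.131 (adjusted p = 0.0169, edgeR) and -0.54 in Wnt5a with an SE of 0.131 (adjusted p = 0.0026, edgeR). Without SCM + IgG replicate 1 the change in SCM was -0.38 (adjusted p = 0.0543, edgeR). The change in Wnt5a was short of the fold cutoff, and it passed when complete media + IgG replicate 2, Wnt5a + IgG replicate 4 or Wnt5a + IgG replicate 6 was left out (log2 fold change of -0.60, -0.60 and -0.59). QCM did not differ from complete media by the test, with a log2 fold change of 0.00 and an SE of 0.130, and SCM against QCM gave -0.47 with an SE of 0.131 (adjusted p = 0.0553, edgeR). Anti-Ptk7 left Prss8 at 96.3 CPM (median) in SCM and 92.1 CPM in Wnt5a, with log2 differences from IgG of 0.22 and 0.06 (adjusted p = 0.4 and 0.893, edgeR). The last 122 bases of Prss8 overlap the end of Kat8 on the other strand, and whether counting used the strand is not given in the sources used here.

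Tmprss2, a transmembrane protease of enterocytes that also cuts the spike protein of coronaviruses, was higher in Wnt5a by a small amount. Its lowest, median and highest values were 326, 342 and 407 CPM in complete media + IgG and 396, 420 and 480 CPM in Wnt5a + IgG, a log2 fold change of 0.30 with an SE of 0.0696 (adjusted p = 0.00181, edgeR). The ranges overlapped through complete media replicate 1. In SCM + IgG they were 375, 396 and 446 CPM, with a log2 fold change of 0.20 (adjusted p = 0.0585, edgeR). With anti-Ptk7 the medians were 400 CPM in SCM and 440 CPM in Wnt5a, and the differences from IgG were -0.03 and 0.04 with an SE of 0.0695.

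St14, the gene of matriptase, did not pass the test in any comparison. Its medians were 391 CPM in complete media + IgG, 450 CPM in QCM + IgG, 437 CPM in SCM + IgG, 407 CPM in SCM + anti-Ptk7, 458 CPM in Wnt5a + IgG and 400 CPM in Wnt5a + anti-Ptk7. All 6 ranges overlapped one another. The SE of its log2 fold change was 0.104 in each comparison of conditions, and the fold changes lay between -0.17 and 0.17. A processed pseudogene, Gm16071, lies inside the gene on the other strand.

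Spint2, the Kunitz inhibitor also known as HAI-2, had the smallest SD within conditions of the 8 and was slightly higher in both conditioned media, by differences that depended on the settings. It had a lowest, median and highest value of 1113, 1185 and 1240 CPM in complete media + IgG, 1231, 1375 and 1451 CPM in QCM + IgG and 1244, 1326 and 1437 CPM in SCM + IgG. The SCM libraries all lay above those of complete media, and QCM overlapped them by its lowest library. Its log2 fold change was 0.22 in QCM (adjusted p = 0.0465, edgeR) and 0.18 in SCM (adjusted p = 0.0253, edgeR), each with an SE of 0.0534 and well under the fold cutoff. Under the alternatives, single libraries left out included, the adjusted p rose to as much as 0.26 in QCM and 0.119 in SCM. Wnt5a + IgG, at 1221, 1237 and 1284 CPM, gave 0.08 (adjusted p = 0.328, edgeR). Both conditions with anti-Ptk7 were above complete media without overlap, with medians of 1414 CPM in SCM and 1372 CPM in Wnt5a and log2 fold changes of 0.25 (adjusted p = 0.00126, edgeR) and 0.23 (adjusted p = 0.00117, edgeR). With quantile normalization and voom the last was 0.12 (adjusted p = 0.137, limma).

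Spint1, the related inhibitor HAI-1 that binds matriptase and the activator of hepatocyte growth factor, had medians of 334 CPM in complete media + IgG, 376 CPM in QCM + IgG, 410 CPM in SCM + IgG and 400 CPM in Wnt5a + IgG. Against complete media it had a log2 fold change of 0.30 in SCM (adjusted p = 0.108, edgeR) and 0.33 in Wnt5a (adjusted p = 0.0501, edgeR), each with an SE of 0.123. With anti-Ptk7 the medians were 432 CPM in SCM and 450 CPM in Wnt5a. Against complete media the log2 fold change in Wnt5a + anti-Ptk7 was 0.53 with an SE of 0.123 (adjusted p = 0.00103, edgeR), short of the fold cutoff, and it passed the cutoff without complete media + IgG replicate 1 or without Wnt5a + anti-Ptk7 replicate 3 or 6. In that comparison 5 of the 7 genes had an adjusted p under 0.05, Prss8 and Plat lower and Tmprss2, Spint1 and Spint2 higher, against 31.4% of all genes. The same threshold was passed by 3 of the 7 when SCM + anti-Ptk7 was set against complete media, Plat lower and Spint1 and Spint2 higher, against 12.1% of all genes. Spint1 did so narrowly (adjusted p = 0.0482, edgeR, and up to 0.114 with a library left out).

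**Figure D4:**
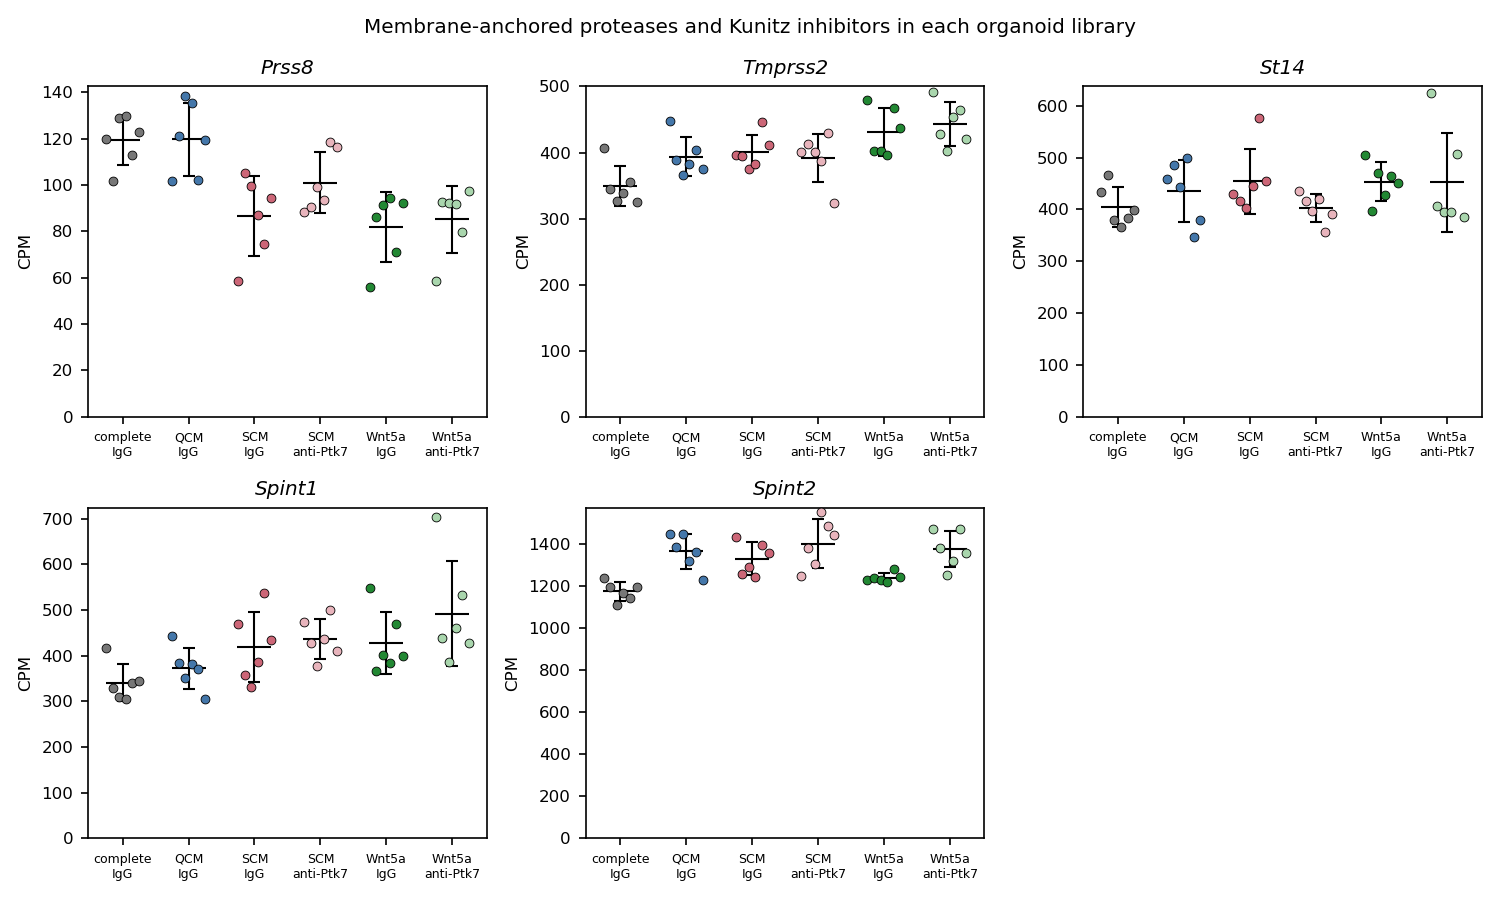
CPM of Prss8, Tmprss2, St14, Spint1 and Spint2 in each of the 36 libraries, drawn as in the plot of Plat, Wfdc2 and Prss22, with each axis starting at 0. Prss8 is lower in SCM and Wnt5a than in complete media, and Spint2 varies least between libraries.

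Libraries of the same replicate number tended to hold the same place. Replicate 1 was the highest library for Wfdc2 in 6 of 6 conditions and for Plat and Prss22 in 5 of 6, and it was the lowest for Prss8 in 5 of 6. Replicate 3 was the lowest for Plat and for Wfdc2 in 4 of 6. The study's design numbers the mice 1 to 6 and the labels number the replicates in the same way, without stating that the numbers are the same. When the 6 libraries numbered 1 were left out, an alternative chosen after the data were seen, the log2 fold change of Plat with anti-Ptk7 was -1.88 in SCM (adjusted p = 0.000136, edgeR) and -1.32 in Wnt5a (adjusted p = 0.00617, edgeR). Wfdc2 then had a log2 fold change of 1.26 in QCM against complete media, which passed the test (adjusted p = 0.0437, edgeR).

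Of 11 other genes of plasminogen activation 7 were tested, and 3 were called in SCM and 3 in Wnt5a against complete media, all higher, where 6.08% and 10.2% of all genes were called. Plaur, the urokinase receptor, rose from a mean of 33.1 CPM in complete media to 82.7 CPM in SCM (log2 fold change 1.33, SE 0.370, adjusted p = 0.0154, edgeR) and to 119 CPM in Wnt5a (1.85, SE 0.373, adjusted p = 0.000444, edgeR). Anxa2 and S100a10, whose proteins form a surface complex that binds Plat and plasminogen, rose as well. Anxa2 had a log2 fold change of 1.63 in SCM and 1.97 in Wnt5a and S100a10 of 1.09 and 0.89, all with an adjusted p of at most 0.00116 by edgeR. These 3 genes were not called in SCM against QCM, where their means were 45.6 CPM for Plaur, 1541 CPM for Anxa2 and 491 CPM for S100a10 in QCM + IgG, above those of complete media. Plg, the gene of plasminogen itself, was at 0 CPM in all conditions.

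With anti-Ptk7 a different gene of that list was called, in the direction opposite to Plat. Lrp1, the endocytic receptor that clears Plat and its inhibitor complexes, had a lowest, median and highest value of 9.95, 18.5 and 22.01 CPM in SCM + IgG and 25.03, 32.9 and 35.8 CPM in SCM + anti-Ptk7, with no overlap. Its log2 fold change was 0.84 with an SE of 0.220 (adjusted p = 0.03, edgeR). In Wnt5a it was 1.14 with an SE of 0.219, from 12.5, 17.7 and 29.4 CPM to 24.2, 42.0 and 60.1 CPM, with ranges that overlapped (adjusted p = 0.00279, edgeR). Lrp1 was the gene called of the 7 in each medium, against 1.23% of all genes in SCM and 0.884% in Wnt5a, and Plaur, Anxa2 and S100a10 did not pass with the antibody.

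Of 18 genes that are cut by these proteases or receive their signals, 12 were tested. In SCM against complete media 3 were called higher and 1 lower, against 6.08% of all genes, and in Wnt5a 7 were called higher, against 10.2%. F3, tissue factor, which starts coagulation on the cell surface, rose from a mean of 77.6 CPM in complete media to 476 CPM in SCM (log2 fold change 2.62, SE 0.435, adjusted p = 8.63e-05, edgeR) and 888 CPM in Wnt5a (3.52, SE 0.452, adjusted p = 7.26e-07, edgeR). F2r, the thrombin receptor, had 3 counts in a single complete media library and 0 in the other five, and rose to a mean of 2.75 CPM in SCM and 11.03 CPM in Wnt5a (adjusted p = 6.27e-05 and 1.36e-07, edgeR). F2r and F3 were also called higher in SCM against QCM, with log2 fold changes of 3.80 and 1.77 (adjusted p = 0.00575 and 0.0252, edgeR). With anti-Ptk7, F2r was lower in SCM, at a mean of 0.189 CPM against 2.75 CPM with IgG (log2 fold change -3.72, SE 0.731, adjusted p = 0.00378, edgeR), and Hgfac, the activator of hepatocyte growth factor, in Wnt5a (-0.69, SE 0.189, adjusted p = 0.0378, edgeR). Epcam and Cldn7, junction proteins that matriptase can cut, were among the genes not called in any of these comparisons, while Epcam was called higher in Wnt5a + anti-Ptk7 against complete media.

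Of 32 other serine proteases 12 were tested. In SCM against complete media 2 were called higher, Prss30 and Klk6, and 2 lower, Prss12 and Prss23, against 6.08% of all genes. Klk6, a kallikrein, went from a mean of 1.25 CPM in complete media to 4.31 CPM in SCM (log2 fold change 1.77, SE 0.513, adjusted p = 0.0201, edgeR) and 5.14 CPM in Wnt5a (2.02, SE 0.514, adjusted p = 0.00409, edgeR). Prss23 was lower in SCM with a log2 fold change of -0.79 and an SE of 0.103 (adjusted p = 1.94e-06, edgeR). In Wnt5a 3 were called higher and 1 lower, against 10.2% of all genes, and with anti-Ptk7 none was called in either medium by edgeR. Of 24 other inhibitors with Kunitz, Kazal or whey acidic protein domains 7 were tested. In Wnt5a against complete media 1 was called, where 10.2% of all genes were, and with anti-Ptk7 1 in each medium, where 1.23% in SCM and 0.884% in Wnt5a were. This was Tfpi2, a secreted Kunitz inhibitor of plasmin and tissue factor complexes, with a mean of 17.3 CPM in complete media and 10.7 CPM in Wnt5a (log2 fold change -0.70, SE 0.194, adjusted p = 0.00844, edgeR). With anti-Ptk7 it was higher in SCM by a log2 fold change of 0.67 (adjusted p = 0.0492, edgeR) and in Wnt5a by 0.69 (adjusted p = 0.046, edgeR). In QCM against complete media, where 0.374% of all genes were called, edgeR called none of these 4 lists.

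**Figure D5:**
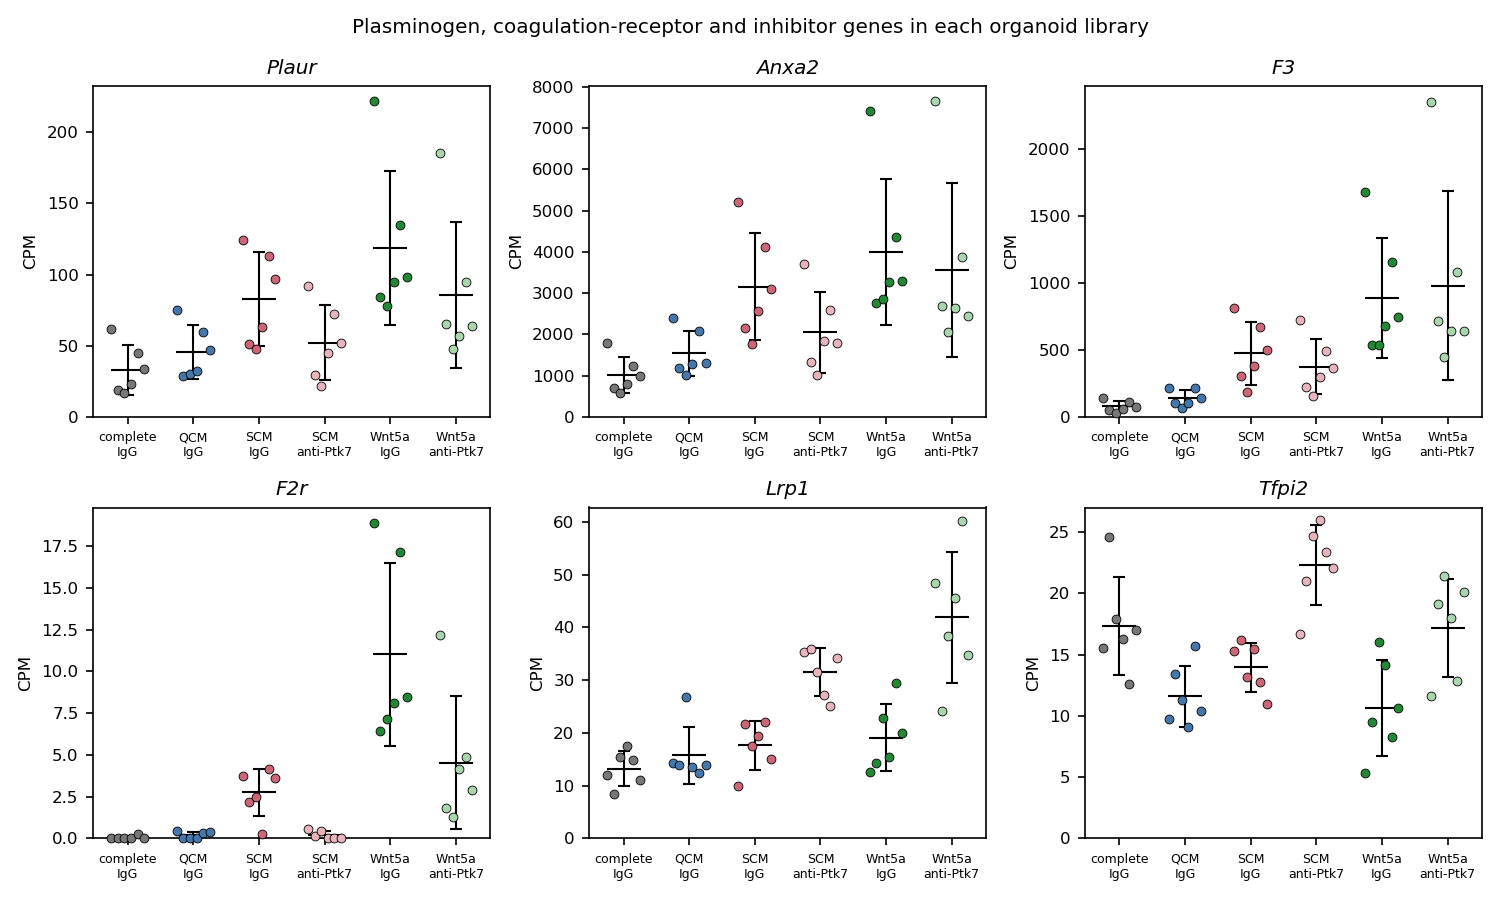
CPM of Plaur, Anxa2, F3, F2r, Lrp1 and Tfpi2 in each of the 36 libraries, drawn as in the plot of Plat, Wfdc2 and Prss22. Plaur, Anxa2, F3 and F2r are higher in SCM and Wnt5a than in complete media, while Lrp1 and Tfpi2 are higher with anti-Ptk7 than with IgG in both media.

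Ptk7, the target of the antibody, had a mean of 12.98 CPM in SCM + IgG and 10.3 CPM in SCM + anti-Ptk7, and of 20.2 and 19.5 CPM in the Wnt5a pair, with adjusted p of 0.538 and 0.962 by edgeR. An antibody acts on the protein, so this does not check its action. Against complete media Ptk7 was called higher in Wnt5a (log2 fold change 0.79, SE 0.253, adjusted p = 0.0216, edgeR).

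The genes whose level followed Wfdc2 most closely over the 36 libraries, by Pearson's r of log2 CPM among 12456 genes, were Anxa1 (0.927), Tagln2 (0.927), Ccn2 (0.922), Msln (0.914) and Col4a1 (0.909). For Prss22 they were Dok7 (0.873), Timp2 (0.836), Emp3 (0.833), Litaf (0.820) and Tes (0.819). These coefficients describe likeness only, since libraries of a condition share its level. By Spearman's rho, 3 of the 5 were among the nearest 5 for each gene. By deviations from the condition means, the coefficients were 0.775 to 0.899 for the 5 of Wfdc2, of which Anxa1 ranked highest at 9, and 0.488 to 0.737 for the 5 of Prss22, of which Dok7 ranked highest at 3.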

How the data were processed

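The authors filtered and aligned single-end reads to the mouse genome (mm10) with GSNAP through HTSeqGenie, and deposited raw counts per gene for each of 36 libraries, made from little RNA with Smart-Seq V4 and Nextera XT. The annotation and the use of strand are not given in the sources used here. Names and positions were taken from GENCODE vM21 (GRCm38), where 147 of the identifiers had no symbol. A series table with the same counts was not used. Counts were filtered with filterByExpr, scaled by TMM and fitted with edgeR 4.0.16 (R 4.3.3) as 6 condition means, and checked against DESeq2 1.42.0 and voom in limma 3.58.1. The scripts were tested on simulated data. The p-values measure the spread between these libraries, which may share a mouse across conditions. Log2 CPM used a prior count of 2. Named genes are the 10 genes, at most 3 called genes with the largest change in each of 4 lists and comparisons, the 5 genes most like Prss22 and Wfdc2, and Ptk7. These genes, lists and tests were chosen with earlier results of these data known. Prss12, Epcam, Cldn7, Plg and the cell type markers are named outside this rule and were chosen after their values were seen. Some genes that the rule would name are not reported here.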

Additional observations from a re-analysis of the deposited data

Results flagged for a closer look

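In 7 of the 55 combinations of a gene and a condition with any count, 1 library stood apart from the other five, with a gap to the nearest library, as a share of the whole range of log2 CPM, above the critical value of Dixon's test. Chance gives such a library in about 1 of 20 groups. Plat in Wnt5a + IgG replicate 1 was the highest at 5.39 (41.7 CPM), with the next library at 4.81. Tmprss2 in SCM + anti-Ptk7 replicate 6 was the lowest at 8.34 (324 CPM), with the next at 8.60. St14 in SCM + IgG replicate 5 was the highest at 9.17 (576 CPM), with the next at 8.83. Spint2 in Wnt5a + IgG replicate 5 was the highest at 10.33 (1284 CPM), with a next value of 10.28 in a narrow group. The other 3 were in genes not detected: Plau in complete media + IgG replicate 6 at 0.49 (1.26 CPM) and in SCM + anti-Ptk7 replicate 4 at 0.31 (1.10 CPM), and Slpi in Wnt5a + IgG replicate 1 at -0.28 (0.674 CPM), each against a count of 0 in the other five libraries. No gene of the group was called for a difference between the antibody's effects in SCM and in Wnt5a.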

How the results depend on the processing

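Plat with anti-Ptk7 was called in SCM and in Wnt5a under every alternative and without any single library, with log2 fold changes from -2.10 to -1.78 and from -1.45 to -1.04, and an adjusted p of at most 0.00669 and 0.0401. No gene changed direction in a comparison where it was called, and Prss22 and Wfdc2 kept the direction of every change over the fold cutoff. Plau, which is not detected, changed sign without being called. In QCM against complete media it went from -2.81 to 1.82 without complete media + IgG replicate 6. Without the fold cutoff the genes called were 1 in QCM (Spint2), 2 in SCM (Prss8, Spint2), 2 in Wnt5a (Prss8, Tmprss2), 3 in SCM + anti-Ptk7 and 5 in Wnt5a + anti-Ptk7, each against complete media. With libraries left out the counts ran from 0 to 1 in QCM, from 0 to 1 in Wnt5a and from 1 to 2 in Wnt5a + anti-Ptk7 against complete media, the last through Spint1 or, without complete media + IgG replicate 6, through Plau, which is not detected. Replicate numbers were not taken as pairing the libraries, because the labels do not tie them to mice and only 34 of 90 pairs of the same number had correlated deviations over 0.1, where all were required (mean 0.092, against -0.018 for different numbers) although 16 of 36 libraries were closest to their own number, which is a hint from the data that numbers may be shared. With the replicate block 1 gene was called in QCM against complete media (Wfdc2, 1.09, adjusted p = 0.00121) and 1 in SCM against QCM (Plat, 0.63, adjusted p = 0.0271), by edgeR, and no other call of the group changed. The count of all genes called in SCM against QCM went from 140 to 496 with the block, 264 by DESeq2, 265 with only the conditions compared, 278 without the libraries numbered 1, 48, 35 and 47 without QCM + IgG replicate 2, 3 or 4, 54, 85 and 91 without SCM + IgG replicate 1, 5 or 6, and 250 without Wnt5a + anti-Ptk7 replicate 1. With the block it went from 58 to 178 in QCM (123 without the libraries numbered 1), from 190 to 399 with anti-Ptk7 in SCM, from 137 to 255 in Wnt5a and from 0 to 3 for the difference of both. Anti-Ptk7 in SCM gave 295 by DESeq2, 86 with only the conditions compared and 105 without SCM + IgG replicate 1 and 122 without SCM + anti-Ptk7 replicate 2, anti-Ptk7 in Wnt5a 81 without Wnt5a + anti-Ptk7 replicate 5, and QCM 38 and 37 without complete media + IgG replicate 3 or 4. Without the fold cutoff the 8 comparisons of conditions gave 102, 1842, 3386, 267, 422, 398, 1875 and 4862. The causes were not tested. Depth limits Prss22, Plau and Slpi most, the last 2 of which hold too few counts to be read.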
